A study of Mus musculus with 2 samples.

Results

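Of 16103 genes in the deposited table, 49 encode calcium release channels, store-operated entry proteins, calcium pumps, the mitochondrial calcium uniporter, calmodulin, calmodulin kinases, calcineurin or NFAT factors. They were chosen by gene symbol and by a mean level of at least 0.5 RPKM (read counts divided by gene length and by each library's total) over the libraries. The rule itself uses no difference between the libraries, though it was written with earlier results of these data known. All 49 rows that match the symbols passed the level, and the lowest are Nfatc2 at 0.580, Ryr2 at 0.612 and Atp2a1 at 0.657 RPKM. None of the 16103 genes carries the symbol Atp2c2 or Ppp3r2, which the rule would also take.

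The study has 1 TRPM2-KD library and 1 Control library. Embryos of ICR mice received plasmids for Trpm2 knockdown, or control plasmids, in the cortex by in utero electroporation on embryonic day 13, and GFP-positive progenitors were sorted on embryonic day 15. ICR is an outbred stock, both libraries carry the label warm, and the knockdown column names 1 construct, TRPM2-sh1, so that lower Trpm2 and other effects of that construct cannot be told apart. Neither the temperature nor the number of embryos behind each library is stated in the sources used here.

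Since each group is 1 library, there is no replicate, no SD and no test of the conditions, so every difference below is one between a pair of libraries. Each ratio is the RPKM of TRPM2-KD over that of Control, followed in brackets by its exact (Clopper-Pearson) 95% interval from the read counts, which covers counting error only. The libraries held 20791236 counted reads in TRPM2-KD and 26209192 in Control. Trpm2, the targeted gene, had 155 reads (0.604 RPKM) in TRPM2-KD and 241 reads (0.745 RPKM) in Control, a ratio of 0.811 (0.658 to 0.996). It did not reach 20% lower, as 14.6% of all genes with at least 0.5 RPKM did. Intervals lay below 1 for 28.2% of those genes, so its interval does not set Trpm2 apart from them.

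Cells keep calcium low in the cytosol and store it in the endoplasmic reticulum. IP3 and ryanodine receptors release it, STIM proteins sense the emptied store and open ORAI channels in the plasma membrane, and pumps return calcium to the store or expel it. Calmodulin carries the signal on to kinases of the CaMK family and to calcineurin, a phosphatase that sends NFAT factors to the nucleus. In the embryonic cortex, calcium transients of radial glia and young neurons are known to bear on proliferation and migration. TRPM2, a calcium-permeable channel, is itself gated with the help of calcium.

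Most of these genes stood at similar levels in both libraries, and the 2 past 1.5-fold were both Orai genes, which encode channel subunits. Of the 49 genes, 2 (4.08%) differed by 1.5-fold or more, Orai3 higher and Orai1 lower in TRPM2-KD. Among all 15187 genes with at least 0.5 RPKM the share is 14.4%, with 7.85% higher and 6.6% lower. Genes with few reads swell that share, and among the 13995 genes with at least 100 reads over both libraries, a depth that every one of the 49 reached, it is 10%. At a lower threshold, 25% higher or 20% lower, 5 genes (10.2%) were higher and 3 (6.12%) lower, beside 15.7% and 14.6% of the 15187 genes. These are Orai3, Camkmt, Ryr2, Itpr2 and Atp2a3 above, and Orai1, Ppp3cc and Camk2n2 below. The 49 genes had a median log2 ratio of -0.05, with 22 ratios above 1 and 27 below, and that of all 15187 genes was -0.004. In bulk samples such as these, fewer cells of a type and less RNA per cell cannot be told apart. The 49 genes took 0.480% of the counted reads in TRPM2-KD and 0.497% in Control.

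Counting intervals lay above 1 for 12 of the 49 genes and below 1 for 17. Among all genes with at least 0.5 RPKM the shares are 28.1% above and 28.2% below, beside 24.5% and 34.7% of these genes. The role groups were not alike. Release channels and pumps had 12 of 14 ratios above 1, with a median log2 ratio of 0.19. Calmodulin, its kinases, their inhibitors, calcineurin and NFAT factors had 19 of 24 below 1, with a median of -0.10. Of all 15187 genes, 7504 had ratios above 1 and 7683 below. By counting intervals, 8 of the 14 lay above 1 and 0 below, and 13 of the 24 lay below 1 and 1 above. The role groups were joined into these 2 blocks after their values were seen, so the blocks describe these libraries and support nothing further.

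**Figure D1:**
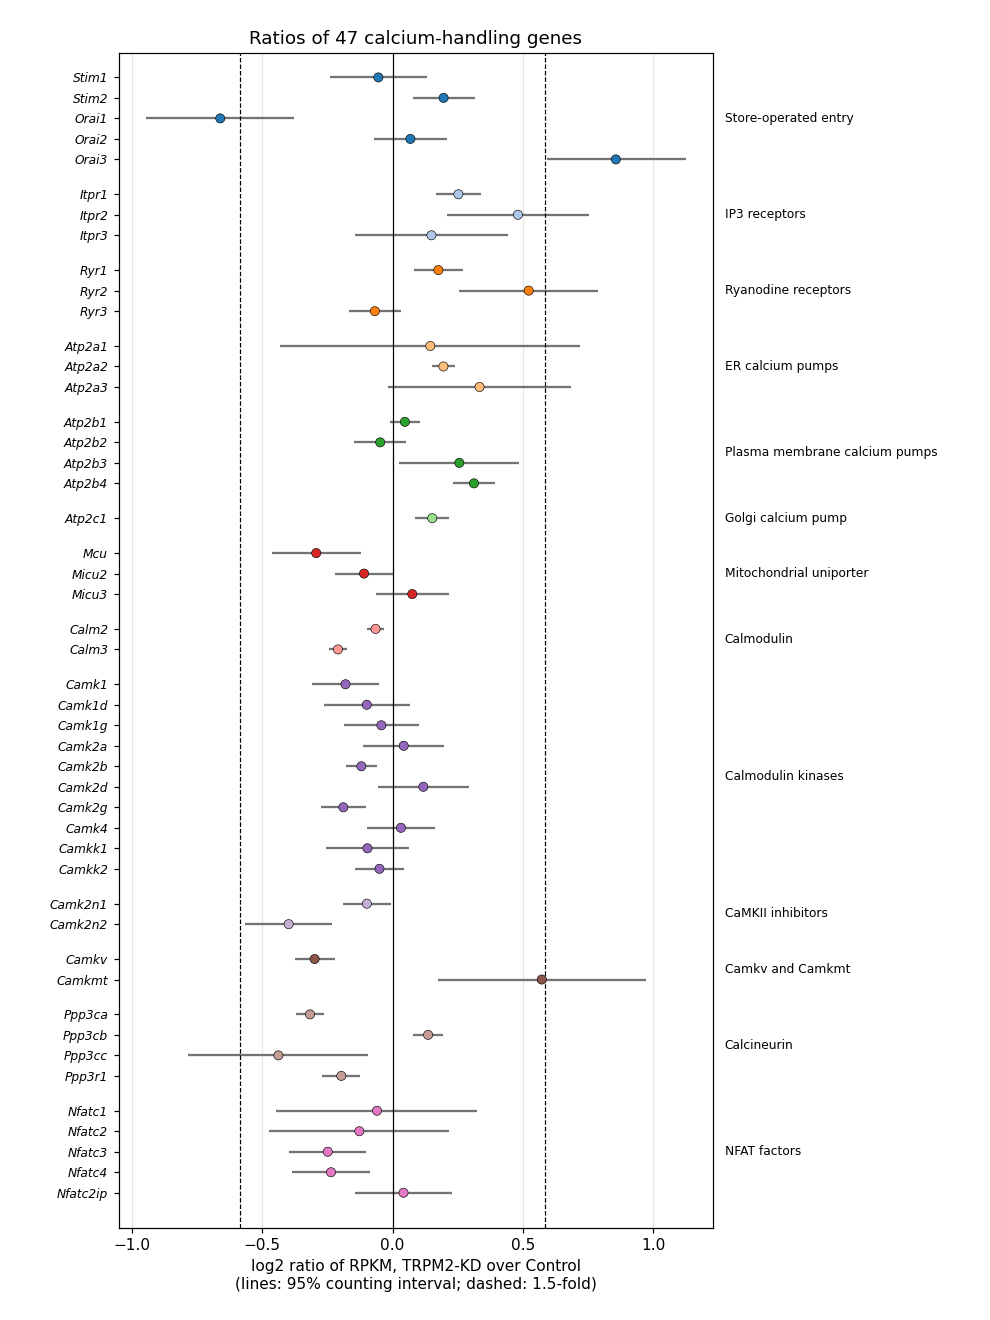
log2 ratio of RPKM, TRPM2-KD over Control, for 47 of the 49 genes by role; points are ratios from 1 library per group, horizontal lines are 95% counting intervals and dashed lines mark 1.5-fold. Orai1 at a ratio of 0.632 and Orai3 at 1.81 lie beyond the dashed lines, most release channels and pumps lie right of 0, and most genes of calmodulin, calcineurin and NFAT lie left of it.

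The Orai genes encode the pore subunits of the store-operated channel, and 2 of the 3 differed between the libraries in opposite directions, while their summed level was 1.08 times as high in TRPM2-KD. Orai3, a subunit found in mammals that can join ORAI1 in mixed channels, had 286 reads (6.42 RPKM) in TRPM2-KD and 199 reads (3.54 RPKM) in Control. Orai1, the subunit on which store-operated entry in lymphocytes depends, had 157 reads (3.29 RPKM) in TRPM2-KD and 313 reads (5.21 RPKM) in Control. Thus Orai3 was the higher of the pair in TRPM2-KD and Orai1 the higher of the pair in Control.

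The Orai3 ratio was 1.81 (1.51 to 2.18) and the Orai1 ratio was 0.632 (0.519 to 0.768). Among the 13995 genes with at least 100 reads, 2.52% lay as high as Orai3 and 3.46% as low as Orai1. Orai2, a subunit abundant in brain, had 752 reads (9.39 RPKM) in TRPM2-KD and 904 reads (8.96 RPKM) in Control, with a ratio of 1.05 (0.951 to 1.16) that spans 1. Summed over the 3 genes, the level was 19.1 RPKM in TRPM2-KD and 17.7 RPKM in Control. Orai3 made up 33.6% of that sum in TRPM2-KD and 20.0% in Control. Orai1 made up 17.2% in TRPM2-KD and 29.4% in Control, and Orai2 49.2% in TRPM2-KD and 50.6% in Control.

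The balance of Orai1 to Orai3 does not depend on how the libraries are scaled. Per length it was 0.513 in TRPM2-KD and 1.47 in Control, and the ratio of these balances was 0.349 (0.266 to 0.458, exact conditional interval of the read counts). Of the 45 such pairs within 14 families, 20 had an interval off 1. Orai1 and Orai3 have the lowest and the highest ratio of the 49 genes, so the place of their balance among these pairs shows nothing further. The authors' deposited table gives Orai3 a log2 fold change of 0.86 with a p-value of 0.204, and Orai1 one of -0.66 with a p-value of 0.327, from a comparison of the same 2 libraries. In the authors' deposited table no p-value of the 49 genes is under 0.05, and every adjusted p-value is 1.

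The promoters of the 3 genes are shown because this family holds both genes past 1.5-fold. Each is the 250 bases before the gene's start in RefSeq on build GRCm38.p6, read 5′ to 3′ on the gene's strand. They lie at chr5:123014824-123015073 (plus strand, Orai1), chr5:136170657-136170906 (minus strand, Orai2) and chr7:127769565-127769814 (plus strand, Orai3). The expression table was made on mm9, so these positions were not joined to it. Capitals mark matches to the motifs named after the sequences, on either strand.
Orai1: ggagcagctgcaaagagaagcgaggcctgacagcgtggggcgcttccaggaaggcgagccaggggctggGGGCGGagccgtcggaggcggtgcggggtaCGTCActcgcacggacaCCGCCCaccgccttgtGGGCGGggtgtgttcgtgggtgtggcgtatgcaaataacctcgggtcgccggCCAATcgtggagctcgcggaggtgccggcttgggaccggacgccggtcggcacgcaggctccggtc
Orai2: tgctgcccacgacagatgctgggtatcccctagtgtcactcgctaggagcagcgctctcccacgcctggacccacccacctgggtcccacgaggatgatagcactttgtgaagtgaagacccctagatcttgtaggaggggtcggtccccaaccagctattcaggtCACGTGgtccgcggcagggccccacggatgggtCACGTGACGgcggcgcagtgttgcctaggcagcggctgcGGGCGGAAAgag
Orai3: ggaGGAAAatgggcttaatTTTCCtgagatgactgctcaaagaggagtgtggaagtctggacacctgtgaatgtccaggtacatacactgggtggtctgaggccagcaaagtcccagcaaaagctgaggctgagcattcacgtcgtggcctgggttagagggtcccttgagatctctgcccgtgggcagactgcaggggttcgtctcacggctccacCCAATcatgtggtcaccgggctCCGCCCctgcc
The motifs searched were the NFAT core GGAAA, the CRE half-site TGACG, the full CRE TGACGTCA, the GC box GGGCGG, the CCAAT box CCAAT, the E-box CACGTG and the TATA element TATAAA, each on both strands. A full CRE holds the half-site. The Orai3 promoter holds 2 NFAT cores, 1 CCAAT box and 1 GC box. The Orai1 promoter holds 3 GC boxes, 1 CCAAT box and 1 CRE half-site, and no NFAT core. The Orai2 promoter holds 2 E-boxes, 1 of which overlaps its CRE half-site, and 1 GC box that overlaps its 1 NFAT core. Neither a full CRE nor a TATA element is in these windows. Of 32851 mouse promoters of the same length, 55.6% hold an NFAT core, 17.8% a CRE half-site, 1.55% a full CRE, 32.7% a GC box, 33.8% a CCAAT box, 6.02% an E-box and 12.4% a TATA element. The windows differ in base makeup, with 57.2% G and C in Orai3, 70.8% in Orai1 and 63.6% in Orai2, against a median of 52.4% over all promoters.

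The sensors that open these channels were at close levels in both libraries. Stim2, a sensor that responds to small falls of store calcium, had 1095 reads (10.1 RPKM) in TRPM2-KD and 1205 reads (8.81 RPKM) in Control, a ratio of 1.15 (1.05 to 1.24). Stim1, the sensor for larger falls, had 424 reads (5.66 RPKM) in TRPM2-KD and 555 reads (5.88 RPKM) in Control, a ratio of 0.963 (0.847 to 1.09). Stim2 was the more abundant of the pair per length in both libraries, at 64.0% of their summed RPKM in TRPM2-KD and 60.0% in Control.

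**Figure D2:**
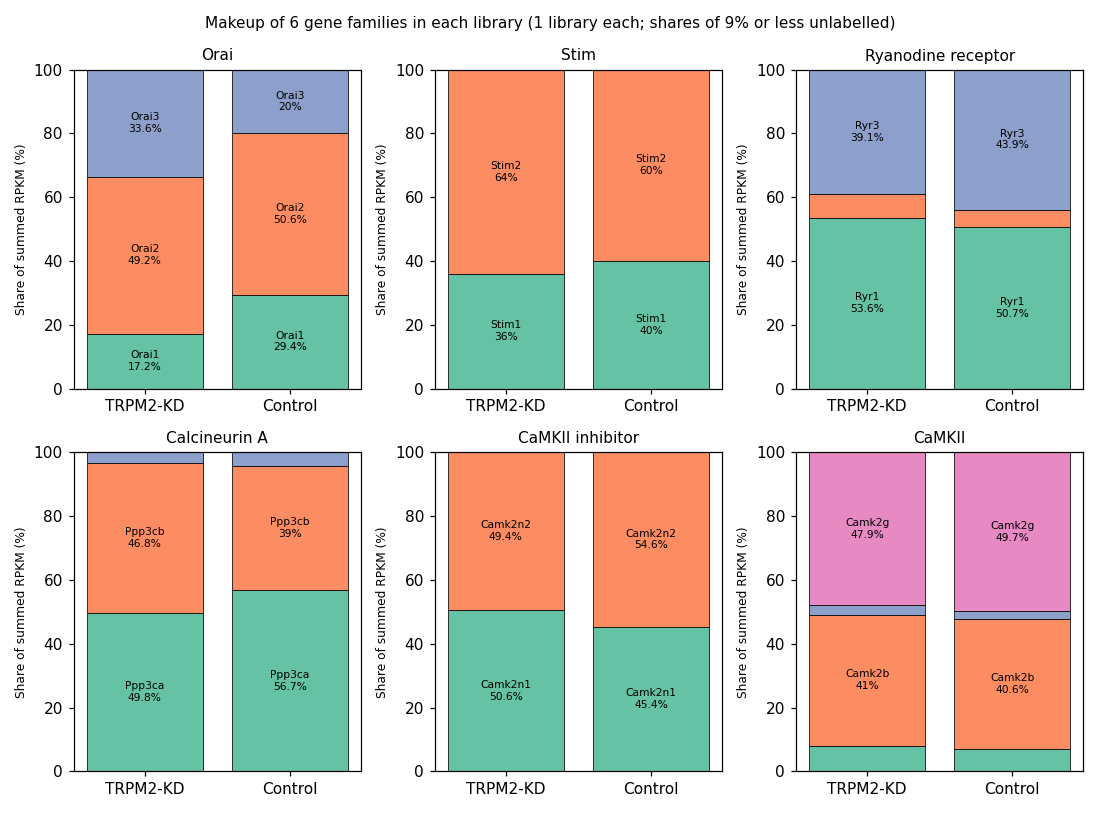
Share of each gene in the summed RPKM of its family, in percent, for 6 families, with TRPM2-KD left of Control in each panel and 1 library per bar. Orai3 takes 33.6% of the Orai sum in TRPM2-KD and 20.0% in Control, while the CaMKII genes keep nearly the same shares.

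The 3 IP3 receptor genes encode the IP3-gated release channels of the endoplasmic reticulum. Their ratios all lay above 1, beside 7504 of all 15187 genes, and none reached 1.5-fold. Itpr1, the main form in neurons, had 2102 reads (10.3 RPKM) in TRPM2-KD and 2224 reads (8.61 RPKM) in Control, a ratio of 1.19 (1.12 to 1.27). Itpr2 was much less abundant, with 237 reads (0.844 RPKM) in TRPM2-KD and 214 reads (0.605 RPKM) in Control, a ratio of 1.40 (1.16 to 1.69). Itpr3 had 183 reads (0.978 RPKM) in TRPM2-KD and 208 reads (0.882 RPKM) in Control, and its ratio of 1.11 (0.904 to 1.36) spans 1. Itpr1 held 84.9% of the family's summed RPKM in TRPM2-KD and 85.3% in Control, so its lead over the other two was alike in both.

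The ryanodine receptors, the other release channels of the store, did not share a direction. Ryr2, the cardiac form that neurons also express, had 253 reads (0.721 RPKM) in TRPM2-KD and 222 reads (0.502 RPKM) in Control, a ratio of 1.44 (1.19 to 1.73). Ryr1, the form of skeletal muscle, had 1693 reads (5.29 RPKM) in TRPM2-KD and 1889 reads (4.68 RPKM) in Control, a ratio of 1.13 (1.06 to 1.21). Ryr3 had 1423 reads (3.87 RPKM) in TRPM2-KD and 1880 reads (4.05 RPKM) in Control, a ratio of 0.954 (0.890 to 1.02). Ryr2 thus stood furthest from 1, and it was also the least abundant of the 3 in both libraries. Per length, Ryr1 and Ryr3 made up 53.6% and 39.1% of the family in TRPM2-KD, and 50.7% and 43.9% in Control.

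Release channel genes are long, and the ratio followed gene length across the table. The median log2 ratio of all genes was 0.09 in the longest decile (8051 bases or more) and -0.07 in the shortest (1124 bases or fewer). Genes are no independent replicates, and across them the Spearman correlation of length with the log2 ratio was 0.139 over 15159 genes and 0.301 over the 49. The 6 release channel genes had a median log2 ratio of 0.21, and 0.13 relative to the median of their own length decile. On that scale Itpr2 was at a ratio of 1.31, Ryr2 at 1.35, Itpr1 at 1.12, Ryr1 at 1.06, Itpr3 at 1.04 and Ryr3 at 0.898.

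**Figure D3:**
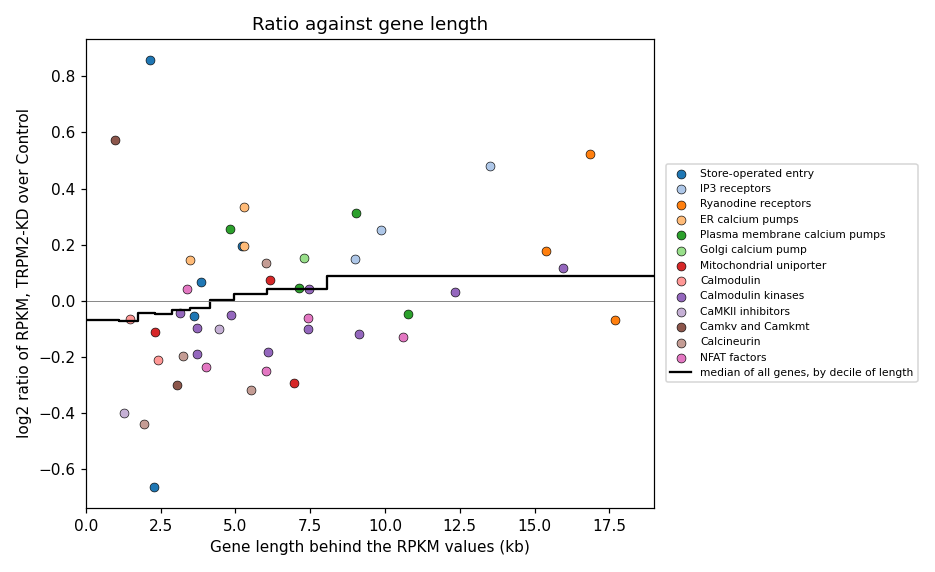
log2 ratio of RPKM, TRPM2-KD over Control, against the gene length behind the RPKM values in kilobases; points are 47 of the 49 genes coloured by role, and the black steps are the median of all genes with at least 0.5 RPKM in each length decile. The steps go from -0.07 in the shortest decile to 0.09 in the longest, and the 3 IP3 receptors lie above them.

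Of 8 calcium pump genes, 7 had ratios above 1 by small margins, beside 7504 of all 15187 genes. Counting intervals lay above 1 for 4 of the 8, beside 28.1% of all genes with at least 0.5 RPKM. Atp2a2 encodes SERCA2, the pump that refills the endoplasmic reticulum in most cells, and it had 7984 reads (72.5 RPKM) in TRPM2-KD and 8790 reads (63.3 RPKM) in Control. Its ratio was 1.14 (1.11 to 1.18), and it held 97.4% of the summed RPKM of the ER pumps in TRPM2-KD and 97.5% in Control. Atp2a3, the form of blood cells among others, had 139 reads (1.26 RPKM) in TRPM2-KD and 139 reads (1.00 RPKM) in Control, a ratio of 1.26 (0.989 to 1.61). Atp2a1, the form of fast skeletal muscle, had 50 reads (0.690 RPKM) in TRPM2-KD and 57 reads (0.624 RPKM) in Control, a ratio of 1.11 (0.741 to 1.65). For both of these minor forms no difference was detectable at this depth. An antisense neighbour, Rabep2, covers 21.9% of the exon bases of Atp2a1, and with strand unknown the Atp2a1 reads are uncertain.

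The plasma membrane pumps expel calcium from the cell. Atp2b4 had 2386 reads (12.7 RPKM) in TRPM2-KD and 2422 reads (10.2 RPKM) in Control, the highest ratio of the 4, 1.24 (1.17 to 1.31). Atp2b3, a form of neurons, had 307 reads (3.06 RPKM) in TRPM2-KD and 324 reads (2.56 RPKM) in Control, a ratio of 1.19 (1.02 to 1.40). The most abundant form, Atp2b1, had 4387 reads (29.6 RPKM) in TRPM2-KD and 5351 reads (28.6 RPKM) in Control, a ratio of 1.03 (0.993 to 1.08). These 3 lay above 1, the last with an interval that spans it. Atp2b2, another form of neurons, had 1418 reads (6.32 RPKM) in TRPM2-KD and 1847 reads (6.53 RPKM) in Control and a ratio of 0.968 (0.902 to 1.04). The Golgi pump gene Atp2c1 had 3526 reads (23.3 RPKM) in TRPM2-KD and 3999 reads (20.96 RPKM) in Control, a ratio of 1.11 (1.06 to 1.16), and 18.9% of its exon bases lie under antisense exons of Aste1.

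The mitochondrial uniporter takes up calcium into mitochondria. Its pore gene Mcu had 463 reads (3.21 RPKM) in TRPM2-KD and 715 reads (3.93 RPKM) in Control, a ratio of 0.816 (0.725 to 0.919). Micu2, which encodes a gatekeeper of the pore, had 1173 reads (24.4 RPKM) in TRPM2-KD and 1595 reads (26.3 RPKM) in Control, and the interval of its ratio, 0.927 (0.859 to 1.00), reaches just past 1. Micu3, a brain-enriched gatekeeper, had 760 reads (5.93 RPKM) in TRPM2-KD and 909 reads (5.63 RPKM) in Control, a ratio of 1.05 (0.956 to 1.16). Of these genes only Mcu had an interval off 1, and none came near 1.5-fold.

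Calmodulin, the calcium-binding protein through which the later steps run, is encoded by several genes with 1 protein sequence between them. Calm2 and Calm3 were slightly lower in TRPM2-KD. Calm3 had 12062 reads (239 RPKM) in TRPM2-KD and 17581 reads (277 RPKM) in Control, a ratio of 0.865 (0.845 to 0.885). Calm2 had 13097 reads (429 RPKM) in TRPM2-KD and 17272 reads (449 RPKM) in Control, a ratio of 0.956 (0.934 to 0.978). The depth makes these the narrowest intervals of the 49, so a difference of a few percent lies outside counting error. Calm2 ranked 50 of 16103 genes by mean RPKM. Calmodulin genes have pseudogene copies, and how the authors counted reads with several matches is not stated, so these counts are uncertain. Relative to genes of like length Calm2 was at 1.01, on the other side of 1, while Calm3 was at 0.893.

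Of 10 kinase genes of the calmodulin pathway, 7 had ratios below 1 and 3 above, between 0.877 and 1.09, and relative to genes of like length Camk2a (0.999) and Camk4 (0.962) were below 1 as well. Intervals lay below 1 for 3 of the 10 and above 1 for 0, beside 28.2% below and 28.1% above among all genes with at least 0.5 RPKM. The share below is thus near that of all genes. CaMKII, the multifunctional kinase known from synaptic plasticity, has 4 genes. Camk2g had 1847 reads (24.0 RPKM) in TRPM2-KD and 2654 reads (27.3 RPKM) in Control, a ratio of 0.877 (0.826 to 0.931). Camk2b had 3902 reads (20.5 RPKM) in TRPM2-KD and 5344 reads (22.3 RPKM) in Control, a ratio of 0.920 (0.883 to 0.959). Camk2a, the form that leads in the mature forebrain, had 626 reads (4.03 RPKM) in TRPM2-KD and 766 reads (3.91 RPKM) in Control, a ratio of 1.03 (0.925 to 1.15). Camk2d had 502 reads (1.51 RPKM) in TRPM2-KD and 583 reads (1.39 RPKM) in Control, a ratio of 1.09 (0.961 to 1.23). Camk2g and Camk2b together led in both libraries, and Camk2a was a minor form at 8.05% of the summed RPKM in TRPM2-KD and 7.12% in Control.

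CaMKK enzymes activate CaMKI and CaMKIV, and this cascade stood close to 1. Camkk2 had 1602 reads (15.9 RPKM) in TRPM2-KD and 2091 reads (16.5 RPKM) in Control and a ratio of 0.966 (0.904 to 1.03). Camkk1 had 561 reads (7.23 RPKM) in TRPM2-KD and 756 reads (7.73 RPKM) in Control and a ratio of 0.935 (0.837 to 1.04). Among the CaMKI genes, Camk1 had 854 reads (6.76 RPKM) in TRPM2-KD and 1220 reads (7.66 RPKM) in Control, and its ratio of 0.882 (0.808 to 0.964) was the only one of the cascade with an interval off 1. Camk1g had 703 reads (10.8 RPKM) in TRPM2-KD and 913 reads (11.1 RPKM) in Control, a ratio of 0.971 (0.878 to 1.07). Camk1d had 526 reads (3.40 RPKM) in TRPM2-KD and 710 reads (3.64 RPKM) in Control, a ratio of 0.934 (0.833 to 1.05). Camk4, the nuclear kinase that phosphorylates CREB, had 864 reads (3.37 RPKM) in TRPM2-KD and 1065 reads (3.29 RPKM) in Control, a ratio of 1.02 (0.934 to 1.12).

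Both inhibitor genes of CaMKII were lower in TRPM2-KD. Camk2n2 had 470 reads (17.5 RPKM) in TRPM2-KD and 781 reads (23.1 RPKM) in Control, a ratio of 0.759 (0.675 to 0.852). Camk2n1 had 1656 reads (17.9 RPKM) in TRPM2-KD and 2235 reads (19.2 RPKM) in Control, a ratio of 0.934 (0.876 to 0.996). Their summed level was 35.4 RPKM in TRPM2-KD and 42.2 RPKM in Control, beside a summed CaMKII level of 50.04 RPKM in TRPM2-KD and 54.9 RPKM in Control. Camkv, a kinase-like protein without kinase activity, had 2238 reads (35.5 RPKM) in TRPM2-KD and 3471 reads (43.6 RPKM) in Control, a ratio of 0.813 (0.770 to 0.857). Camkmt, which methylates a lysine of calmodulin, went the other way, with 118 reads (5.83 RPKM) in TRPM2-KD and 100 reads (3.92 RPKM) in Control and a ratio of 1.49 (1.13 to 1.96). It lies just under 1.5-fold, and relative to genes of like length its ratio was 1.56.

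Calcineurin is built of a catalytic A subunit and a regulatory B subunit, and its main A genes differed in direction. Ppp3ca, the alpha form of the A subunit, had 4642 reads (40.5 RPKM) in TRPM2-KD and 7288 reads (50.4 RPKM) in Control, a ratio of 0.803 (0.774 to 0.833). Ppp3cb, the beta form, had 4769 reads (38.1 RPKM) in TRPM2-KD and 5469 reads (34.6 RPKM) in Control, a ratio of 1.10 (1.06 to 1.14). Both were counted deeply, and neither interval reaches 1. The balance of Ppp3ca to Ppp3cb was 1.06 per length in TRPM2-KD and 1.45 in Control, and the ratio of these balances was 0.730 (0.692 to 0.771). The summed level of the 3 A genes was 81.3 RPKM in TRPM2-KD and 88.8 RPKM in Control.

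The gamma form Ppp3cc, known best from testis, had 113 reads (2.79 RPKM) in TRPM2-KD and 193 reads (3.78 RPKM) in Control, a ratio of 0.738 (0.580 to 0.936). The B subunit gene Ppp3r1 had 2613 reads (38.9 RPKM) in TRPM2-KD and 3775 reads (44.6 RPKM) in Control, a ratio of 0.873 (0.830 to 0.917), but 14.3% of its exon bases are shared with Wdr92 on the same strand. Of the 4 calcineurin genes, Ppp3cb alone was higher in TRPM2-KD.

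The NFAT factors that calcineurin acts on were lower or level. Nfatc4, which neurons express, had 625 reads (7.47 RPKM) in TRPM2-KD and 928 reads (8.80 RPKM) in Control, a ratio of 0.849 (0.766 to 0.941). Nfatc3 had 629 reads (5.02 RPKM) in TRPM2-KD and 942 reads (5.97 RPKM) in Control, a ratio of 0.842 (0.760 to 0.932). These forms make up most of the family, at 54.5% and 36.7% of its summed RPKM in TRPM2-KD and 54.8% and 37.2% in Control. Nfatc1 had 102 reads (0.659 RPKM) in TRPM2-KD and 134 reads (0.687 RPKM) in Control, a ratio of 0.959 (0.734 to 1.251). Nfatc2 had 122 reads (0.554 RPKM) in TRPM2-KD and 168 reads (0.605 RPKM) in Control, a ratio of 0.915 (0.719 to 1.16). No difference in these minor forms was detectable at this depth. Nfatc2ip, a partner of NFATC2 and no NFAT factor itself, had 437 reads (6.20 RPKM) in TRPM2-KD and 535 reads (6.02 RPKM) in Control, a ratio of 1.03 (0.905 to 1.17), with the antisense Gm45141 over 13.4% of its exon bases.

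**Figure D4:**
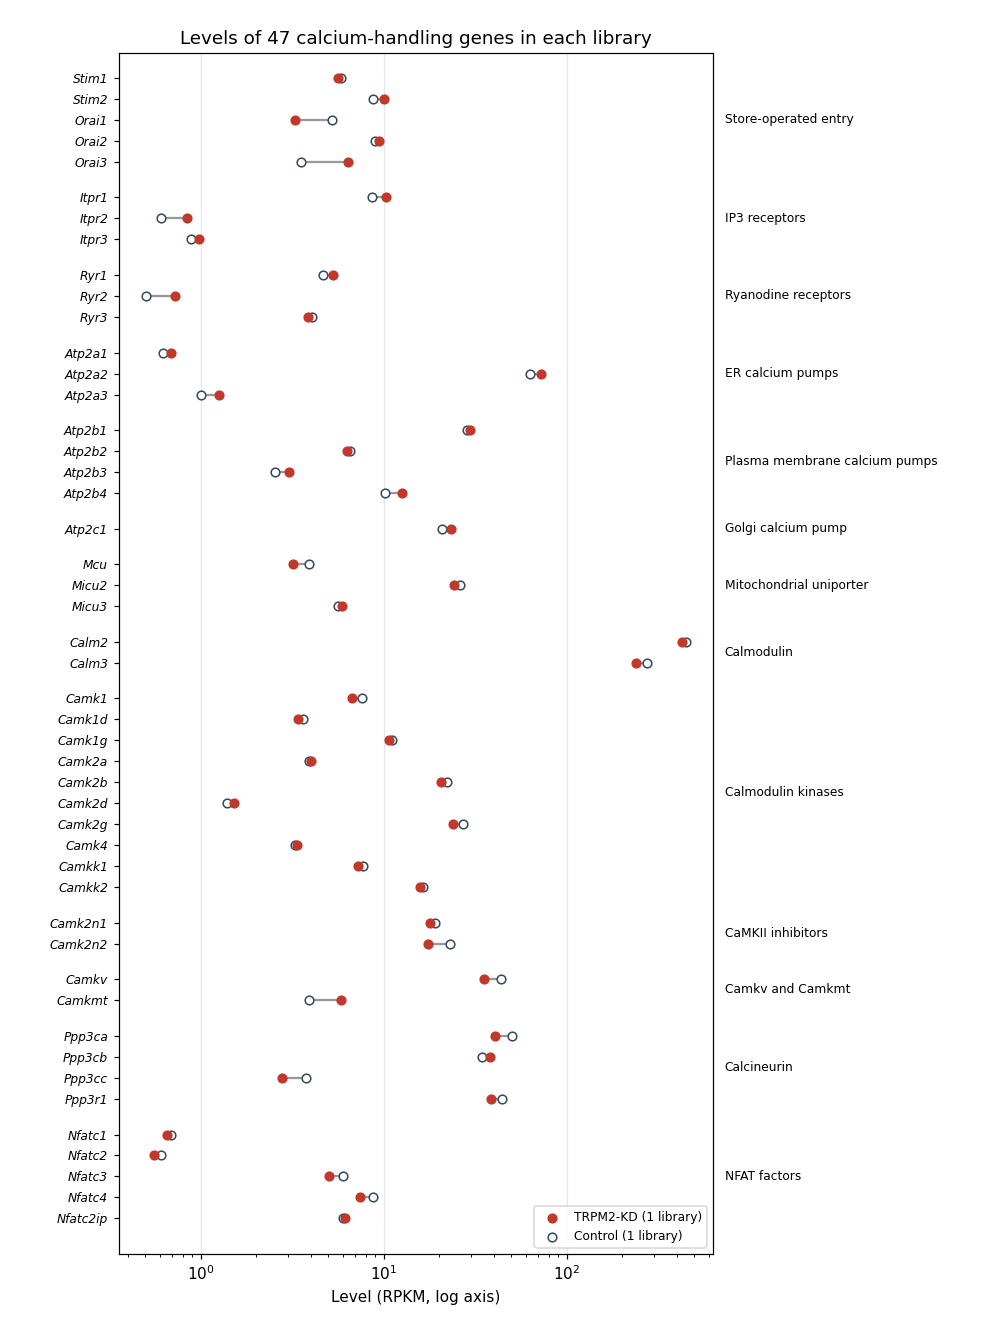
Level of 47 of the 49 genes in RPKM on a log axis, with TRPM2-KD as filled points and Control as open points, 1 library each, joined by a line. Levels run from 0.554 RPKM (Nfatc2 in TRPM2-KD) or 0.502 RPKM (Ryr2 in Control) to 429 RPKM for Calm2 in TRPM2-KD and 449 RPKM in Control, and most pairs of points nearly touch, those of Orai1 and Orai3 being set apart in opposite directions.

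Levels ranged far more between genes than between libraries. Calm2 was highest in both, Calm3 and Atp2a2 were among the next, and the genes under 1 RPKM on average were Itpr3, Itpr2, Nfatc1, Atp2a1, Ryr2 and Nfatc2. Within a family, 1 or 2 genes carried most of the level, as Itpr1 and Atp2a2 did, and Camkk2 with 68.7% in TRPM2-KD and 68.0% in Control. The order of the members by level was the same in both libraries in the families of CaMKII, the IP3 receptors and the ER pumps. In the Orai family Orai1 and Orai3 changed places, as did Camk2n1 and Camk2n2 among the CaMKII inhibitors.

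**Figure D5:**
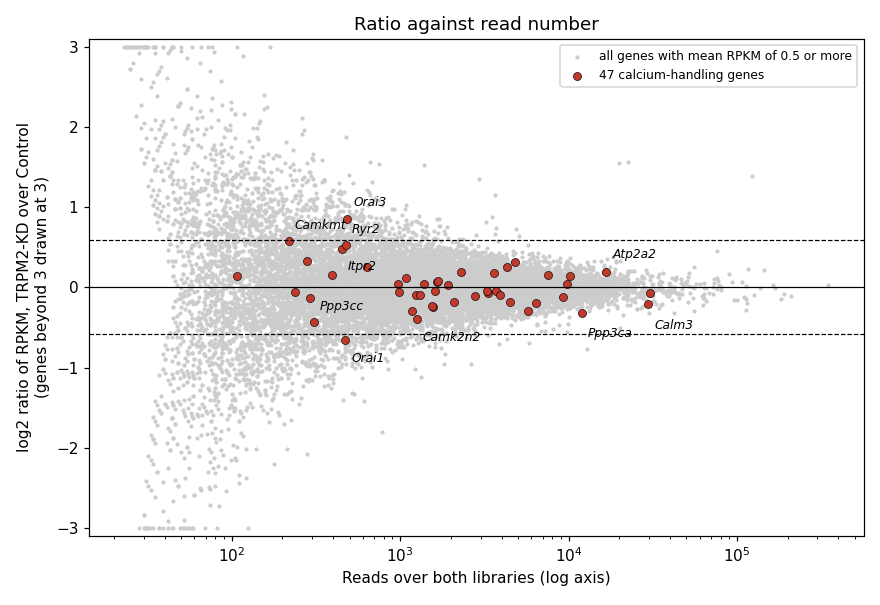
log2 ratio of RPKM, TRPM2-KD over Control, against the reads of a gene over both libraries on a log axis; grey points are genes with at least 0.5 RPKM and reads in both libraries, red points 47 of the 49 genes, and dashed lines 1.5-fold. The spread of the grey points widens as reads become fewer, and of the red points only Orai3 (485 reads) and Orai1 (470 reads) lie beyond the lines.

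Genes around this machinery were examined with a list of 139, of which 128 were in the table and 124 had at least 0.5 RPKM. Of these, 6 were at least 1.5-fold higher and 7 at least 1.5-fold lower in TRPM2-KD, 10.5% beside the background of 14.4%. Of the 121 with at least 100 reads, 6 were higher and 6 lower, 9.92% beside the 10% of all genes at that depth, so the share is near the background. The median log2 ratio was 0.02, with 72 ratios above 1 and 52 below. No gene passed 1.5-fold among 12 calcium-binding proteins of the ER and Golgi or 12 calcineurin regulators and partners. The same held for 5 sodium-calcium exchangers and 11 transcription regulators downstream of the kinases. Of the 12 calcineurin regulators and partners, 10 had ratios above 1, beside 7504 of all 15187 genes. The 12 ran from 0.843 to 1.18, and the intervals of several of the 10 span 1. Of the 4 calcineurin genes 3 had ratios below 1, and the difference between these lists was not tested.

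Of 17 genes listed for IP3 formation and turnover, 4 (23.5%) were past 1.5-fold, 2 in each direction. The share was 14.4% of all genes with at least 0.5 RPKM and 10.5% over all the lists together. The phospholipase C gene Plcg2, abundant in blood cells, had 202 reads (2.26 RPKM) in TRPM2-KD and 100 reads (0.887 RPKM) in Control, a ratio of 2.55 (1.99 to 3.27). Plcb2, another phospholipase C gene of blood cells, had 160 reads (1.17 RPKM) in TRPM2-KD and 80 reads (0.462 RPKM) in Control, a ratio of 2.52 (1.92 to 3.34). Beside these stand the 12 microglia and macrophage markers. Intervals lay above 1 for 10 of the 12 and below 1 for 0, against 28.1% and 28.2% of all genes with at least 0.5 RPKM. All 12 together summed to 248 RPKM in TRPM2-KD and to 157 RPKM in Control. None of the 12 was at 0 in either library, and their part in these ratios was not tested. In both GFP-sorted libraries such markers were present, as C1qa at 48.0 RPKM in TRPM2-KD and 34.8 RPKM in Control. How many such cells passed the sort was not tested. The other two were lower, Inpp5a, a phosphatase that removes IP3, with 280 reads (3.81 RPKM) in TRPM2-KD and 535 reads (5.78 RPKM) in Control, and Plcd3 with 60 reads (0.849 RPKM) in TRPM2-KD and 119 reads (1.34 RPKM) in Control. Their ratios were 0.660 (0.569 to 0.764) and 0.636 (0.458 to 0.874).

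Of 9 other genes of mitochondrial calcium on the list, 3 (33.3%) were past 1.5-fold, beside 14.4% of all genes with at least 0.5 RPKM. This was the highest share of any of the lists, which together had 10.5%. Slc25a24, a calcium-regulated carrier of ATP, had 173 reads (2.42 RPKM) in TRPM2-KD and 112 reads (1.24 RPKM) in Control, a ratio of 1.95 (1.53 to 2.49). Slc8b1, the mitochondrial sodium-calcium exchanger, had 305 reads (4.23 RPKM) in TRPM2-KD and 252 reads (2.77 RPKM) in Control, a ratio of 1.53 (1.29 to 1.81). Mcur1, a regulator of the uniporter, had 183 reads (2.02 RPKM) in TRPM2-KD and 367 reads (3.22 RPKM) in Control, a ratio of 0.629 (0.524 to 0.753). Mcur1 was thus lower in TRPM2-KD, like Mcu, and Slc8b1 and Slc25a24 were higher. The list as a whole did not lean, with 5 of the 9 ratios above 1, 4 below and a median log2 ratio of 0.01.

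The rest past 1.5-fold with at least 50 reads belonged to other lists. Adcy8, an adenylyl cyclase stimulated by calmodulin, had 93 reads (0.888 RPKM) in TRPM2-KD and 33 reads (0.250 RPKM) in Control, a ratio of 3.55 (2.36 to 5.46). Fkbp1b, which binds ryanodine receptors, had 108 reads (5.30 RPKM) in TRPM2-KD and 87 reads (3.39 RPKM) in Control, a ratio of 1.56 (1.17 to 2.10). Both were higher in TRPM2-KD. Tpcn2, a lysosomal channel, had 132 reads (2.18 RPKM) in TRPM2-KD and 252 reads (3.30 RPKM) in Control, a ratio of 0.660 (0.531 to 0.818). Nrgn, a neuronal protein that binds calmodulin, had 53 reads (1.75 RPKM) in TRPM2-KD and 105 reads (2.75 RPKM) in Control, a ratio of 0.636 (0.448 to 0.894). The neuronal calcium sensor gene Vsnl1 had 82 reads (2.04 RPKM) in TRPM2-KD and 160 reads (3.15 RPKM) in Control, a ratio of 0.646 (0.489 to 0.848).

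Several cell type markers also differed between the libraries. The cells are labelled as neural progenitors, and all 8 radial glia markers were present, from 3.42 to 303 RPKM in TRPM2-KD and from 3.63 to 259 RPKM in Control. Markers of neurons were present as well, from 18.1 to 680 RPKM in TRPM2-KD and from 21.2 to 743 RPKM in Control. Of 9 neuronal markers 7 had counting intervals below 1 and 2 above, and their sum was 1708 RPKM in TRPM2-KD and 1886 RPKM in Control. Among all genes with at least 0.5 RPKM, 28.2% had intervals below 1 and 28.1% above. Of the 49 genes, 17 had intervals below 1, among them Calm3, Camkv, 3 of the 4 calcineurin genes, Orai1, Mcu and Camk2g. Calm2 was another, at 1.01 relative to genes of like length. Itpr1, Ryr2 and Atp2b3, which neurons express too, were among the 12 of the 49 genes with intervals above 1. Of 8 radial glia markers 3 had intervals above 1 and 1 below, and their median ratio was 1.01. They summed to 595 RPKM in TRPM2-KD and 557 RPKM in Control, but without Fabp7, the most abundant, to 291 RPKM in TRPM2-KD and 298 RPKM in Control. The 4 markers of intermediate progenitors summed to 187 RPKM in TRPM2-KD and 191 RPKM in Control. Endothelial markers summed to 105 RPKM in TRPM2-KD and 124 RPKM in Control, with 2 of 7 ratios above 1. Without Cldn5, the most abundant, they summed to 44.3 RPKM in TRPM2-KD and 47.3 RPKM in Control. Markers of meningeal fibroblasts summed to 60.8 RPKM in TRPM2-KD and 76.8 RPKM in Control. Choroid plexus markers summed to 292 RPKM in TRPM2-KD and 416 RPKM in Control. Sums in TRPM2-KD and Control were 42.9 and 41.8 RPKM for mural markers, and 75.6 and 73.1 RPKM for erythroid ones. In the same order they were 38.8 and 36.1 RPKM for Cajal-Retzius cells and 145 and 155 RPKM for interneurons. Markers of the oligodendrocyte lineage summed to 19.9 RPKM in TRPM2-KD and 17.6 RPKM in Control. No marker of the 12 lists was at 0 in either library, and their part in the ratios of the 49 genes was not tested.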

How the data were processed

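RNA-seq of 1 TRPM2-KD and 1 Control library was read from 1 table. The authors deposited raw read counts per gene and RPKM values, per the file headers, with their own log2 fold change, p-value and adjusted p-value, from a tool not stated there. Bowtie2 2.2.3, TopHat2 2.0.12, HTSeq 0.6.0 and mm9 are named in the submitters' processing notes, with no role. Strand handling and annotation release were not stated there.

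Ratios are plain RPKM ratios without a pseudocount, with exact conditional 95% intervals of the counts (Python 3.11.15, scipy 1.17.1); PCR reads are not independent molecules, so these cover counting error only. Intervals and folds were checked on simulated counts that held counting error alone. Exact intervals hold there by design, so the check says nothing of variation between libraries. A gene counted as past the threshold at 1.5-fold, and 47 of the 49 genes are named; 2 are not reported here, though the counts and medians over the 49 include them. Others on the wider list were named past 1.5-fold with 50 or more reads. Alternatives were TMM (edgeR 4.0.16) and median-ratio scaling, a length correction, pseudocounts of 1 and 0.1, and other RPKM minima and folds. Taking no RPKM minimum leaves the same 49 genes, so that setting could change nothing. Gene length is reads over RPKM. Exon overlaps come from GENCODE M21, names only. Of the 49 symbols, 34 matched RefSeq promoters. The genes, lists and tests were chosen with earlier results of these data known.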

Additional observations from a re-analysis of the deposited data

How the results depend on the processing

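TMM and size factors moved every log2 ratio by 0.001 and 0.002. Of 245 ratios of single genes under another scaling, length correction or pseudocount, 238 stayed within their counting interval. With TMM, size factors and the pseudocount of 0.1 all 49 stayed, and the shifts of the scalings are too small to show more. The interval was left by 5 of 49 with the length correction and by 2 on log2(RPKM + 1). In all, 3 genes crossed 1, each with the length correction: Calm2 at 1.005, Camk2a at 0.999 and Camk4 at 0.962. Orai3 and Orai1 kept their side under every one of these settings. The numbers of genes past the threshold are small and follow the setting. With the length correction 2 genes were past 1.5-fold higher (Orai3 and Camkmt), since shorter genes had lower ratios. On log2(RPKM + 1), which shrinks low levels, 0 were past it lower. At 2-fold there were 0 higher and 0 lower, and at 25% higher or 20% lower 5 higher and 3 lower. The median log2 ratio of the 49 genes lay between -0.05 and -0.04 in all settings, that of release channels and pumps between 0.16 and 0.19, and that of calmodulin, kinases, inhibitors, calcineurin and NFAT between -0.12 and -0.09. No paired analysis was possible because each group has 1 library. Depth limits the minor forms most, such as Atp2a1 with 107 reads over both libraries and an interval from 0.741 to 1.65. The background at 100 reads, the joined role groups, the counts of intervals off 1 and the marker sums without Fabp7 or Cldn5 were added after the data were seen.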
